A study of Danio rerio with 6 samples.

Results

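The genes described here are 9 readouts of Bmp signalling, found by their symbols among the 32520 genes of the deposited count table. They are the Id genes id1, id2a, id2b, id3 and id4 and the feedback inhibitor genes smad6a, smad6b, smad7 and bambia. Each symbol matched a single Ensembl gene, and all 9 passed the filter on low counts. They were measured by bulk polyA RNA-seq in 6 libraries of cells sorted from hand-dissected trunks of zebrafish aged 24 hours post fertilization, in 3 groups of 2. The first group is slow muscle (replicates 1 and 2), sorted by tgPAC(prdm1a:eGFP), a transgene that marks slow-twitch fibres and muscle pioneers. The next is neural crest (replicates 3 and 4) from embryos treated with 100 µM cyclopamine, a blocker of the Hedgehog transducer Smoothened, between 50% epiboly and 24 hours. The last is neural crest from untreated embryos (replicates 1 and 2). Both crest groups were sorted by tg(sox10:mRFP), and the design text gives the embryos as carrying both transgenes. All embryos were wild type otherwise, no vehicle is named for the untreated ones, and the labels do not say that replicates came from separate pools of embryos. P-values therefore measure only the spread between these libraries, which may be technical.

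Bmp ligands bind paired type I and type II kinase receptors, which phosphorylate the transducers encoded by smad1, smad5 and smad9. These join the common Smad and switch on target genes in the nucleus, among which the Id genes are the classical readout in vertebrates. Id proteins have a helix-loop-helix but no DNA-binding basic region, so they hold E proteins, the partners of MyoD and other tissue-specific basic helix-loop-helix factors, away from DNA. The same signal induces its own inhibitors, the inhibitory Smads and Bambi, a receptor decoy without a kinase domain. In the zebrafish myotome Bmp signals oppose Hedgehog signals in setting which cells become engrailed-positive muscle pioneers, and in the dorsal neural tube Bmp signals take part in crest induction.

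Library totals lay between 15355583 and 26441238 counts, and levels are given as CPM, counts scaled to a TMM-normalized library size of 1000000. The word slow-twitch stands in the titles of both untreated crest libraries, although tissue and source are given as neural crest, and their markers are those of crest. The crest regulator gene sox10 was measured at 1.90 and 4.22 CPM in slow muscle, 2616 and 4029 CPM in cyclopamine crest, and 3293 and 3169 CPM in untreated crest. Cyclopamine replicate 4 stood apart from the other libraries: 1164 genes were at 0 counts there with at least 100 counts in replicate 3, against 122 to 421 such genes in the other libraries. In each library the number of genes per count value had a local peak, at 102 counts in cyclopamine replicate 4 and at 34 to 44 counts in the others. Replicate 4 also held notochord and floor plate transcripts, a summed 4053 CPM over a list of 10 genes against 124 CPM in replicate 3. Of that sum col2a1a alone gave 3584 CPM. The list summed to 1170 to 1454 CPM in slow muscle and 130 to 136 CPM in untreated crest. Slow muscle markers summed to 31100 to 67730 CPM in the slow muscle sort, with mybpc1 at 0, and to at most 217 CPM in either crest group. The slow muscle sort held transcripts of other tissues as well. Epidermal markers (18 of 18 detected) summed to 10520 to 14630 CPM there, 1022 to 2333 CPM in cyclopamine crest (14 of 18) and 1375 to 1634 CPM in untreated crest (15 of 18), where grhl3 and foxi3a were at 0 in both crest groups. Endothelial markers (21 of 21 detected in every group) summed to 5057 to 5503 CPM in slow muscle, 241 to 803 CPM in cyclopamine crest and 889 to 906 CPM in untreated crest. Fewer cells of a type and less RNA per cell cannot be told apart in such bulk samples.

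**Figure D1:**
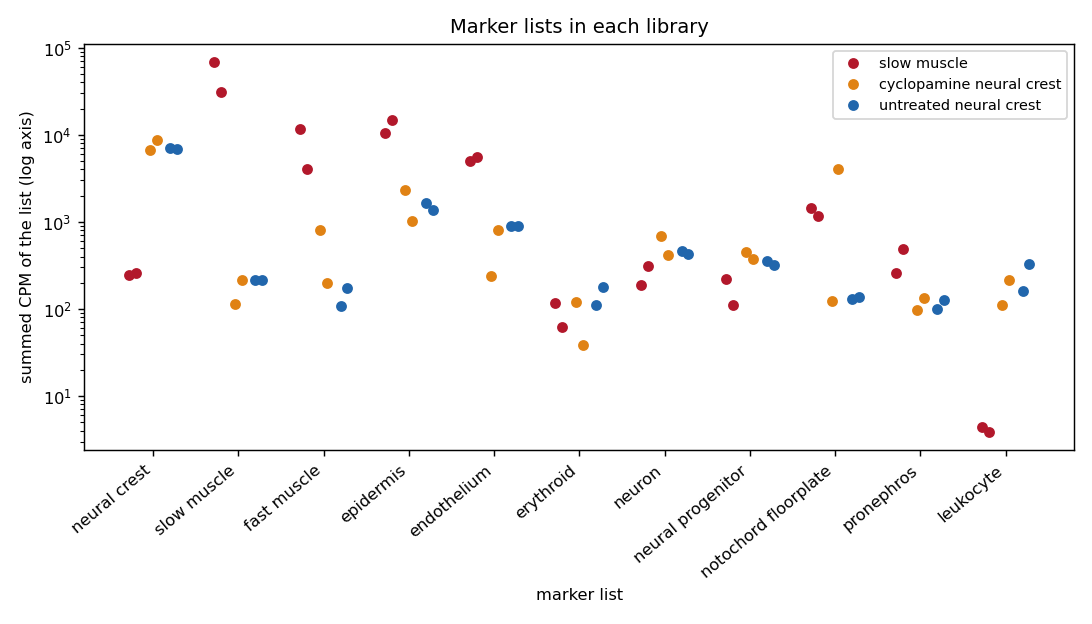
Summed CPM (log axis) of each marker list in each library, with the groups in colour and 1 point per library. Crest markers lie at 247.1 to 260.2 CPM in slow muscle, 6604 to 8725 CPM in cyclopamine crest and 6785 to 7067 CPM in untreated crest; the notochord and floor plate list separates the cyclopamine libraries, at 124 and 4053 CPM.

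Against untreated crest, both slow muscle libraries lay lower in id2a and id3 and higher in smad6a, smad6b, bambia and id4, with no overlap between the groups for any of these genes. Of all genes tested 33.6% lay above and 27.3% below untreated crest in both slow muscle libraries. Both cyclopamine libraries lay below both untreated ones in id1 and smad7 and above them in id2b, where 16.6% of all genes lay below and 14.6% above. Such separations are common among all genes and are not read as a trait of the members. None of the 9 genes passed edgeR's quasi-likelihood test with Benjamini-Hochberg adjustment over the 17701 genes tested, in any comparison. Of all genes 2.55% were called for slow muscle against untreated crest (1.67% higher and 0.876% lower), 0.0% for cyclopamine against untreated crest, and 2.18% for slow muscle against cyclopamine crest (1.38% higher and 0.797% lower). At an unadjusted edgeR p under 0.05 there were 2, 1 and 2 members, among 19.2%, 4.33% and 19.7% of all genes. DESeq2 called id2a lower and smad6a higher in slow muscle against untreated crest, where it called 16.1% of the genes it tested (10.9% higher and 5.23% lower). It called no member for cyclopamine against untreated crest, where 1.8% of all genes were called. It called smad6a higher in slow muscle against cyclopamine crest, where 16.3% were (10.3% higher and 5.97% lower). A miss in a design of 2 against 2 does not show that the levels were equal, and the intervals below give the range of differences these libraries allow.

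**Figure D2:**
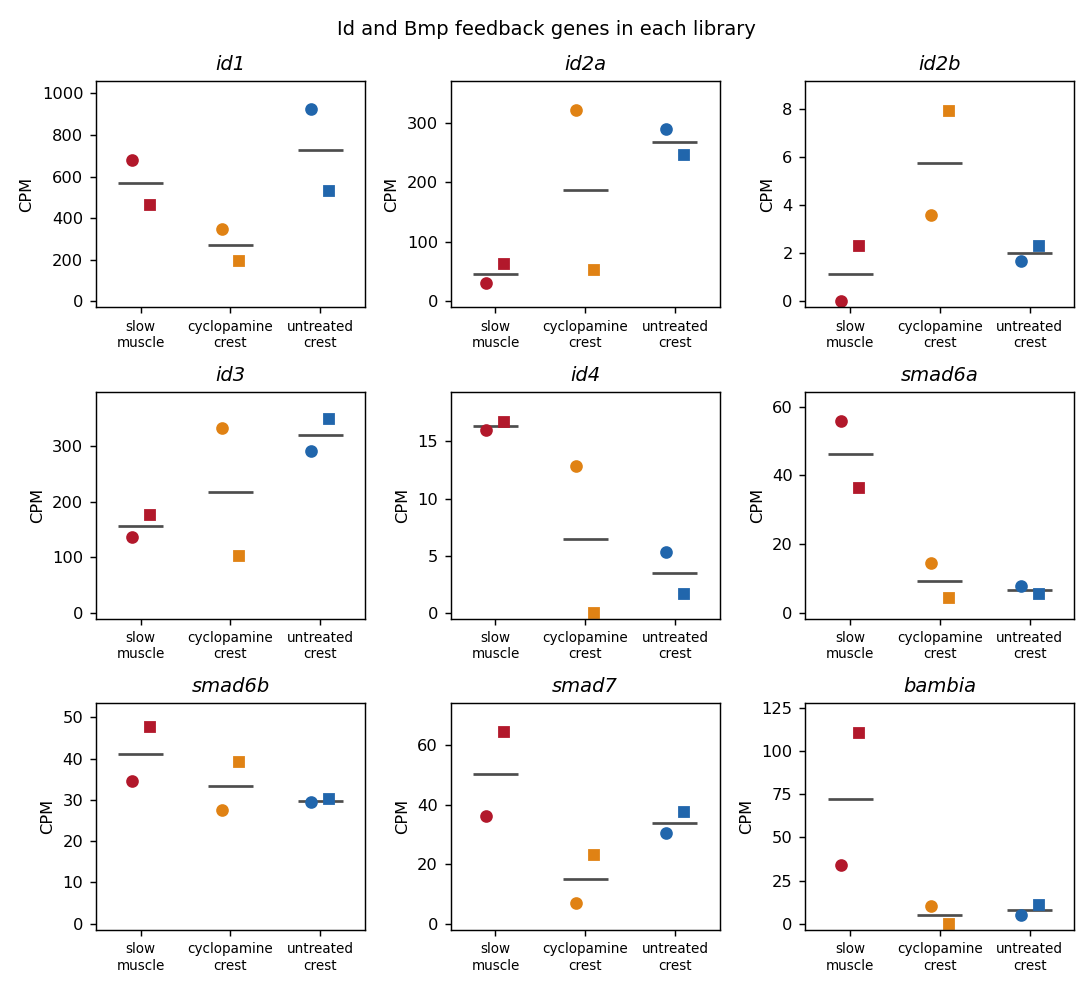
CPM of the 9 genes in each library, with slow muscle, cyclopamine crest and untreated crest from left to right; circles are the lower-numbered and squares the higher-numbered replicate, and bars are means. The smad6a and bambia points of slow muscle (36.5 and 34.1 CPM at the lowest) lie above every crest point. The cyclopamine points of id2a and id3 are far apart, with replicate 3 (322 and 333 CPM) near the untreated points and replicate 4 (52.6 and 101.5 CPM) near or below those of slow muscle.

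id2a, which encodes an Id protein expressed in crest and neural precursors of the fish, stood at 30.3 and 63.1 CPM in slow muscle, 322 and 52.6 CPM in cyclopamine crest (replicates 3 and 4) and 289 and 246.6 CPM in untreated crest. Both slow muscle libraries lay below both untreated ones, and cyclopamine replicate 4 lay within the range of slow muscle while replicate 3 exceeded every other library. The log2 fold change of slow muscle against untreated crest was -2.52 ± 0.87 (SE, 95% interval -4.65 to -0.39, edgeR adjusted p = 0.2, DESeq2 adjusted p = 0.0207). It ran from -3.16 to -2.13 when a single library was left out of the shared fit. In cyclopamine against untreated crest it was -0.52 ± 0.82 (edgeR adjusted p = 1.0). That value rests on which library is used: it was 0.27 ± 0.43 without replicate 4 and -2.34 without replicate 3. A group left with 1 library is assumed in such a fit to vary like the others. Slow muscle against cyclopamine crest gave -2.0 ± 0.85 (edgeR adjusted p = 0.268). This value was -2.78 ± 0.42 without cyclopamine replicate 4 and -0.18 ± 0.45 without replicate 3.

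id3, another Id gene with a Bmp-dependent enhancer in vertebrates, followed id2a across the libraries. It stood at 135.9 and 176 CPM in slow muscle, 333 and 101.5 CPM in cyclopamine crest and 291 and 349 CPM in untreated crest. Slow muscle lay below untreated crest in both libraries, cyclopamine replicate 3 lay within the range of untreated crest, and cyclopamine replicate 4 lay below all other libraries. Slow muscle differed from untreated crest by a log2 fold change of -1.04 ± 0.57 (95% interval -2.44 to 0.36, edgeR adjusted p = 0.367, DESeq2 adjusted p = 0.307). That change ran from -1.25 to -0.90 with a single library left out of the fit. Cyclopamine against untreated crest gave -0.56 ± 0.57 (edgeR adjusted p = 0.978), 0.059 ± 0.30 without replicate 4, and -1.65 ± 0.33 without replicate 3. Slow muscle differed from cyclopamine crest by -0.48 ± 0.57 (edgeR adjusted p = 0.704), and by 0.61 ± 0.31 without cyclopamine replicate 3.

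id1, the Id gene most widely used as a reporter of Bmp activity, had a different order. Its levels were 678 and 464 CPM in slow muscle, 347 and 194 CPM in cyclopamine crest and 926 and 530.4 CPM in untreated crest. The slow muscle and untreated libraries overlapped, and both cyclopamine libraries lay below all 4 others. Cyclopamine against untreated crest had a log2 fold change of -1.43 ± 0.47 (95% interval -2.58 to -0.28, unadjusted p = 0.0225, edgeR adjusted p = 0.835, DESeq2 adjusted p = 0.13). Leaving out cyclopamine replicate 4, the library that stands apart, gave -1.07 ± 0.41, while leaving out replicate 3 gave -1.90 ± 0.43. Slow muscle against untreated crest gave -0.35 ± 0.46 (edgeR adjusted p = 0.766), a sign that turned to 0.093 ± 0.62 without untreated replicate 1, the higher library. Slow muscle exceeded cyclopamine crest by 1.08 ± 0.46 on the log2 scale (95% interval -0.06 to 2.22, edgeR adjusted p = 0.271). The difference was 1.54 ± 0.42 without cyclopamine replicate 3 and 0.72 ± 0.40 without replicate 4.

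The remaining Id genes had few counts. id4, an Id gene of neural and other precursors, stood at 16.0 and 16.7 CPM in slow muscle, 12.8 and 0 CPM in cyclopamine crest and 5.27 and 1.66 CPM in untreated crest. Its 0 in cyclopamine replicate 4 faces 283 counts in replicate 3. By counting error alone such a 0 leaves room for 3 counts, or 0.141 CPM. The local peak of the count distribution in replicate 4 lay higher, at 102 counts or 4.79 CPM, so this 0 is not read as absence. Slow muscle lay above every crest library, with a log2 fold change against untreated crest of 2.24 ± 2.26 (95% interval -3.31 to 7.79, edgeR adjusted p = 0.665). id2b, the second copy of id2 in the fish, stood at 0 and 2.32 CPM in slow muscle, 3.58 and 7.94 CPM in cyclopamine crest and 1.69 and 2.31 CPM in untreated crest. Its counts, 0 to 169, lay around the local peak of the count distribution. Both cyclopamine libraries lay above both untreated ones, a log2 fold change of 1.52 ± 2.43 (95% interval -4.44 to 7.49, edgeR adjusted p = 1.0).

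Among the inhibitors, smad6a had the clearest separation. This inhibitory Smad gene, known in vertebrate endothelium and heart as a target and brake of Bmp signals, stood at 55.9 and 36.5 CPM in slow muscle, 14.4 and 4.13 CPM in cyclopamine crest and 7.80 and 5.56 CPM in untreated crest. Both slow muscle libraries exceeded all 4 crest libraries, and the crest groups overlapped. Slow muscle had 6.90-fold the fitted level of untreated crest (log2 fold change 2.79 ± 0.79, 95% interval 0.86 to 4.71, edgeR adjusted p = 0.138, DESeq2 adjusted p = 0.00651) and 4.96-fold that of cyclopamine crest (2.31 ± 0.77, edgeR adjusted p = 0.188, DESeq2 adjusted p = 0.0296). Without cyclopamine replicate 3 the log2 fold change against cyclopamine crest was 3.46 ± 0.71, and without replicate 4 it was 1.68 ± 0.62. Against untreated crest the log2 fold change ran from 2.405 to 3.045 with a single library left out. Endothelial marker lists were also higher in the slow muscle sort, where cdh5 stood at 451.5 and 498 CPM against 56.7 and 57.7 CPM in untreated crest, and their part in the smad6a level was not tested.

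bambia encodes the Bambi pseudoreceptor and is co-expressed with bmp4 in vertebrate embryos. It stood at 34.1 and 110.4 CPM in slow muscle, 10.2 and 0 CPM in cyclopamine crest and 5.27 and 10.7 CPM in untreated crest. Slow muscle lay above all crest libraries, but its own replicates differed 3.24-fold. In slow muscle replicates 1 and 2 the slow muscle markers summed to 67730 and 31100 CPM. Epidermal markers summed there to 10520 and 14630 CPM. The part of this make-up in the bambia level was not tested. The log2 fold change was 3.18 ± 1.97 against untreated crest (95% interval -1.65 to 8.01, edgeR adjusted p = 0.424, DESeq2 adjusted p = 0.228) and 3.82 ± 2.03 against cyclopamine crest (edgeR adjusted p = 0.343, DESeq2 adjusted p = 0.117). Against untreated crest the log2 fold change was 2.07 ± 2.28 without slow muscle replicate 2 and 3.78 ± 2.59 without untreated replicate 2. The 0 in cyclopamine replicate 4 faces 225 counts in replicate 3, and without replicate 4 the cyclopamine difference from untreated crest turned to 0.35 ± 0.76, against -0.65 ± 1.83 with it. With replicate 4 as the sole cyclopamine library, bambia and id4 stood at 0 in that group. Their fitted changes in the comparisons of that group are then no bound.

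smad7, whose product blocks both Bmp and Tgf-beta receptors, stood at 36.2 and 64.5 CPM in slow muscle, 6.88 and 23.0 CPM in cyclopamine crest and 30.4 and 37.6 CPM in untreated crest. Both cyclopamine libraries lay below every other library, whereas slow muscle and untreated crest overlapped. Cyclopamine against untreated crest had a log2 fold change of -1.18 ± 0.68 (95% interval -2.85 to 0.48, edgeR adjusted p = 0.835, DESeq2 adjusted p = 0.785). The size depended on the library: -2.30 ± 0.58 without replicate 4 and -0.55 ± 0.52 without replicate 3. Slow muscle against cyclopamine crest gave 1.75 ± 0.69 (unadjusted p = 0.0441, edgeR adjusted p = 0.241). The value was 2.87 ± 0.60 without cyclopamine replicate 4 and 1.12 ± 0.54 without replicate 3.

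smad6b, the second smad6 copy, varied least across the groups in its fitted fold changes. Its levels were 34.6 and 47.6 CPM in slow muscle, 27.5 and 39.3 CPM in cyclopamine crest and 29.5 and 30.2 CPM in untreated crest. The cyclopamine libraries spanned those of untreated crest and overlapped slow muscle, while slow muscle lay above untreated crest. The log2 fold changes were 0.46 ± 0.42 for slow muscle against untreated crest (95% interval -0.57 to 1.49, edgeR adjusted p = 0.614) and 0.16 ± 0.42 for cyclopamine against untreated crest (95% interval -0.87 to 1.19, edgeR adjusted p = 1.0). The ratio of the smad6 copies within a library is a value that no scaling of the library changes. The ratio of smad6a to smad6b counts was 1.61 and 0.766 in slow muscle, 0.525 and 0.105 in cyclopamine crest and 0.265 and 0.184 in untreated crest. These ratios describe how a pair shifts between groups, not which gene is more abundant, since no transcript lengths were used.

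**Figure D3:**
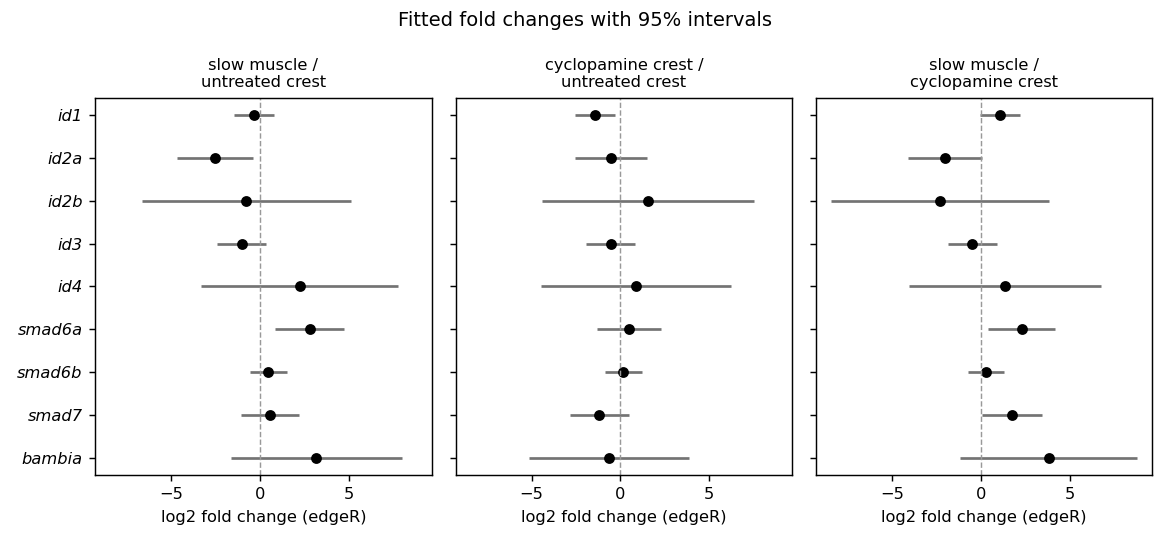
Fitted log2 fold changes (points) with 95% intervals (lines) from edgeR for the 9 genes, a panel per comparison and 0 marked by a dashed line. Intervals that leave out 0 belong to id2a and smad6a in slow muscle against untreated crest, id1 in cyclopamine against untreated crest, and smad6a and smad7 in slow muscle against cyclopamine crest; none of these passed adjustment over all genes.

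Counted by library, 4 members lay above and 2 below untreated crest in both slow muscle libraries, where 33.6% and 27.3% of all genes tested did so. For cyclopamine against untreated crest 1 lay above and 2 below (14.6% and 16.6% of all genes), and for slow muscle against cyclopamine crest 5 above and 1 below (31.1% and 21.8%). With 9 members these counts are not read as a trait particular to them. All 4 inhibitors had a positive fitted change in slow muscle against untreated crest, while 4 of 5 Id genes had a negative one. The median difference of mean log2(CPM + 1) was 1.55 for the inhibitors and -0.71 for the Id genes, beside 0.06 over all genes tested. That Id median is the value of id2b, which had 0 and 55 counts in slow muscle and a fitted log2 fold change of -0.78 ± 2.39. For cyclopamine against untreated crest these medians were -0.60, -0.79 and -0.03. The inhibitors split there into 2 positive and 2 negative differences, and their median fitted log2 fold change was -0.24. Of the Id genes 4 were negative on this measure and 3 by fitted change. The measure takes the 0 of id4 and bambia in cyclopamine replicate 4 at face value. The comparisons share the untreated or the cyclopamine libraries, so their values are set side by side and no overlap was computed.

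With the groups of each gene ordered by mean level, 18 neighbouring pairs result, and the libraries of 12 of them overlapped. The same share over all genes was not computed, so these counts describe the members and are not a trait particular to them. The 6 pairs without overlap were slow muscle over cyclopamine crest for id1, id4 and smad6a, cyclopamine over untreated crest for id2b, untreated over cyclopamine crest for smad7, and slow muscle over untreated crest for bambia. Within the Id family the ratio of id2a to id1 counts was 0.0447 and 0.136 in slow muscle, 0.929 and 0.272 in cyclopamine crest and 0.312 and 0.465 in untreated crest. Both slow muscle ratios lay below all crest ratios. The same held for id2a to id3, at 0.223 and 0.358 in slow muscle. The ratio of id3 to id1 counts did overlap, at 0.2005 and 0.380 in slow muscle against 0.314 and 0.658 in untreated crest. It was 0.962 and 0.524 in cyclopamine crest. The 5 Id genes together summed to 860 and 722 CPM in slow muscle, 1019 and 356 CPM in cyclopamine crest and 1513 and 1130 CPM in untreated crest, where both untreated libraries were the highest. The summed inhibitors were highest in both slow muscle libraries and lowest in both cyclopamine libraries, at 161 and 259 CPM in slow muscle, 59.0 and 66.4 CPM in cyclopamine crest and 73.0 and 84.1 CPM in untreated crest.

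How far the replicates disagreed set how much these comparisons can show. Over the 9854 genes with a mean of at least 10 CPM, the median absolute log2 ratio of the replicates, on CPM + 1, was 0.42 in slow muscle, 0.82 in cyclopamine crest and 0.32 in untreated crest. For the 7 members at that level the median was 0.60, 1.61 and 0.30. In cyclopamine crest id2a differed 6.12-fold, smad6a 3.50-fold, smad7 3.34-fold and id3 3.29-fold between replicates. smad6b differed 1.43-fold there. The direction was not shared, since replicate 4 had less id1, id2a, id3, id4, smad6a and bambia than replicate 3 but more id2b, smad6b and smad7.

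**Figure D4:**
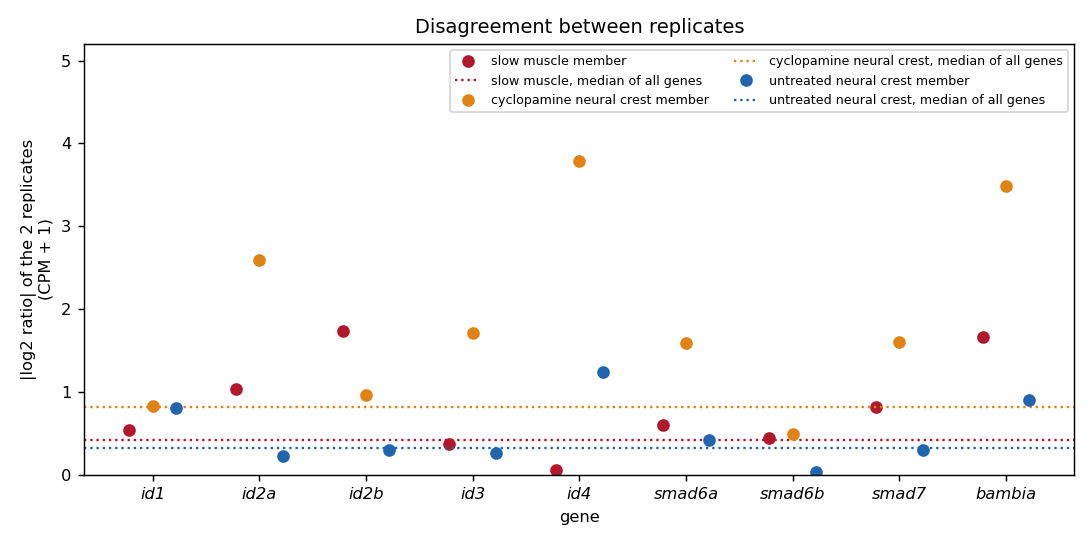
Absolute log2 ratio of the replicates, on CPM + 1, for each gene and group (points), with the median over all genes of at least 10 CPM as dotted lines. Cyclopamine crest has the highest point for 8 of the 9 genes, all but id2b, and its points for id1 (0.84) and id2b (0.97) are the nearest to its dotted line at 0.82.

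For the likeness of patterns, each member was correlated with 8971 genes of at least 10 CPM over the 6 libraries, on log2(CPM + 1), as a description without a test. The 6 points fall in 3 groups of 2, and all genes of a library share its depth. Genes named were the 3 highest of 8971, so a high r is in part due to that choice. The correlation also leaves out the size of a change. apaf1, named below for smad7, ran over 29.75 to 39.16 CPM and smad7 over 6.88 to 64.55 CPM. The genes most like id2a were fen1 (Pearson r = 0.997), adss1 (0.996) and seta (0.995), and those most like id3 were ctsd (0.996), txnrd3 (0.996) and wdr82 (0.994). For smad6a they were ldb3b (0.997), ctsk (0.995) and meis1a (0.995), and for bambia tm9sf5 (0.997), sept7a (0.992) and capns1b (0.992). gpam (0.985), ptp4a3b (0.978) and MED9 (0.97) were nearest to id1, while xrcc4 (0.991), hoxc10a (0.986) and apaf1 (0.978) were nearest to smad7. The remaining nearest genes were tcf7, ralgps2 and sypl2a for smad6b (0.986 to 0.981), itm2cb, pccb and znf706 for id4 (0.995 to 0.989) and ttc21b, itpr1a and chst11 for id2b (0.984 to 0.978).

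The rest of the pathway was read from 7 lists, of which 132 genes matched and 115 were tested. Against untreated crest 7 of these were called higher and 1 lower in slow muscle, 6.96% of the genes tested beside 2.55% of all genes. Against cyclopamine crest 3 were called higher in slow muscle and 0 lower, or 2.61% beside 2.18% of all genes, a share near the background. Of 22 listed ligand genes 16 were tested, and 12 of those lay above untreated crest in both slow muscle libraries and 2 below, where 33.6% and 27.3% of all genes did so. bmp3, a ligand that opposes other Bmps in mammals, was the sole ligand called, and averaged 107 ± 3.8 CPM in slow muscle against 2.52 ± 0.31 CPM in untreated crest (SD, n = 2 libraries each; log2 fold change 5.41 ± 0.48 (SE), edgeR adjusted p = 0.0136). It was also higher against cyclopamine crest, where it averaged 2.41 ± 0.62 CPM (log2 fold change 5.47 ± 0.48, edgeR adjusted p = 0.0159; 0.0983 in a fit of these 4 libraries alone). bmp2a, bmp7b and gdf10b, chosen after their values were seen, had 0 counts in all 4 crest libraries and averaged 30.5, 33.8 and 29.6 CPM in slow muscle (edgeR adjusted p = 0.0579, 0.0557 and 0.0732 against untreated crest). With crest at 0, these 3 genes passed the filter on low counts through slow muscle alone and could only lie higher there. Their p-values therefore do not test the direction. bmp6 had 87 and 0 counts in cyclopamine crest and 1 and 0 in untreated crest. bmp16 had 0 and 0 counts in cyclopamine crest and 33 and 0 in untreated crest. Each reached the filter's minimum in a single crest library where 2 libraries were needed, so they too passed through slow muscle alone. All of these genes are among the 12 ligands above untreated crest in both slow muscle libraries. So is bmp8a, with 2 and 253 counts in slow muscle and 0 in both untreated crest libraries. It could not lie below untreated crest, and its 2 counts are fewer than the 3 that a 0 allows. The listed ligands left untested had 0 counts in every library. DESeq2 called 7 of the 16 ligands higher, bmp2a, bmp7b and gdf10b included, and none lower, beside 10.9% of all genes called higher. Epidermal and endothelial markers moved the same way, and their part in the ligand levels was not tested.

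Genes of secreted binders and of co-receptors held most of the other calls. fstl1a and fstl1b, follistatin-like genes whose product binds Bmp ligands in mammals, were higher in slow muscle. fstl1a averaged 248 ± 7.2 CPM in slow muscle, 45.0 ± 1.6 CPM in cyclopamine crest and 6.52 ± 0.10 CPM in untreated crest (log2 fold change against untreated crest 5.25 ± 0.33, edgeR adjusted p = 0.0119; against cyclopamine crest 2.46 ± 0.29, edgeR adjusted p = 0.026). The call against cyclopamine crest was lost in a fit of these 4 libraries alone (edgeR adjusted p = 0.105) and without slow muscle replicate 1 or 2 (0.0645 or 0.0661). Cyclopamine crest lay above untreated crest in fstl1a, with a log2 fold change of 2.79 ± 0.30 (unadjusted p = 8.916e-05, edgeR adjusted p = 0.45); DESeq2 called it (2.81 ± 0.35, adjusted p = 3.204e-11). fstl1b averaged 1170.0 ± 134 CPM in slow muscle, 447 ± 34.4 CPM in cyclopamine crest and 327.5 ± 31.3 CPM in untreated crest (log2 fold change against untreated crest 1.84 ± 0.30, edgeR adjusted p = 0.0425). Of 18 tested genes on the list of binders, which also holds the non-binders tll1, bmp1a and bmp1b, these 2 were called by edgeR. Of 21 tested receptors and co-receptors, a list that also holds Activin receptor genes such as acvr1ba and acvr1bb, 3 were called higher. hjv and rgma encode Bmp co-receptors in mammals, and neo1b a neogenin that binds them. hjv averaged 325 ± 40.6 CPM in slow muscle, 14.3 ± 9.8 CPM in cyclopamine crest and 7.20 ± 6.4 CPM in untreated crest (log2 fold change of slow muscle against untreated crest 5.50 ± 0.94, edgeR adjusted p = 0.0467). rgma averaged 152 ± 28.2 CPM in slow muscle, 47.6 ± 12.1 CPM in cyclopamine crest and 18.8 ± 6.2 CPM in untreated crest (3.01 ± 0.43, edgeR adjusted p = 0.0325). neo1b averaged 158 ± 8.8 CPM in slow muscle, 93.3 ± 29.5 CPM in cyclopamine crest and 29.0 ± 7.2 CPM in untreated crest (2.45 ± 0.39, edgeR adjusted p = 0.0401). The related genes rgmb, rgmd and neo1a on the same list, chosen after their values were seen, had log2 fold changes of slow muscle against untreated crest of 0.22 ± 0.61, 0.79 ± 0.30 and 0.29 ± 0.42 and were not called (edgeR adjusted p = 0.923, 0.233 and 0.802). In rgma and neo1b both cyclopamine libraries lay between those of slow muscle and untreated crest. With upper quartile scaling the calls of fstl1b and neo1b were lost (edgeR adjusted p = 0.0524 for each). The calls of bmp3, hjv, rgma, neo1b, fstl1b, dlx3b and tbx2b against untreated crest were lost without untreated replicate 1 (edgeR adjusted p = 0.0543 to 0.275) and without untreated replicate 2 (0.0526 to 0.341), and fstl1b, neo1b and tbx2b also without either slow muscle replicate, rgma without slow muscle replicate 1 and dlx3b without slow muscle replicate 2.

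Transducers, partners and other target genes had few edgeR calls. Of 16 tested Smads and Smad regulators edgeR called none in slow muscle against untreated crest. An unadjusted edgeR p under 0.05 was found for 5 of the 16, beside 19.2% of all genes. DESeq2 called 4 of the 16 higher, beside 10.9% of all genes, and the difference of these shares was not tested. smad1, a receptor-regulated Smad gene, averaged 268 ± 9.97 CPM in slow muscle, 117 ± 35.4 CPM in cyclopamine crest and 140.3 ± 0.75 CPM in untreated crest (edgeR adjusted p = 0.199 for slow muscle against untreated crest). The antiproliferative gene tob1a averaged 196 ± 12.2 CPM in slow muscle, 41.4 ± 20.3 CPM in cyclopamine crest and 40.2 ± 0.47 CPM in untreated crest (edgeR adjusted p = 0.0571 for slow muscle against untreated crest). Its copy tob1b averaged 341 ± 114 CPM in slow muscle, 123 ± 52.2 CPM in cyclopamine crest and 82.4 ± 6.9 CPM in untreated crest (edgeR adjusted p = 0.0753). Of 24 tested target genes DESeq2 called 6 higher and 1 lower in slow muscle against untreated crest, beside 10.9% and 5.23% of all genes. An unadjusted edgeR p under 0.05 was found for 8, beside 19.2% of all genes. vox, at 0 counts in every crest library, and msx2a, above 0 in a single one, passed the filter on low counts through slow muscle alone. edgeR called dlx3b higher in slow muscle, at 107 ± 29.2 CPM there, 13.7 ± 6.9 CPM in cyclopamine crest and 5.29 ± 1.3 CPM in untreated crest (log2 fold change of slow muscle against untreated crest 4.34 ± 0.58, edgeR adjusted p = 0.0298). It encodes a homeodomain factor of the epidermis and preplacodal ectoderm. tp63, on the epidermal list as well and not called by edgeR, stood at 196 and 219.5 CPM in slow muscle against 5.11 and 1.66 CPM in untreated crest. The part of epidermal transcripts in the dlx3b level was not tested. tbx2b, a T-box factor gene, was lower in slow muscle, at 13.3 ± 3.1 CPM there, 23.7 ± 5.2 CPM in cyclopamine crest and 96.7 ± 36.5 CPM in untreated crest (log2 fold change of slow muscle against untreated crest -2.86 ± 0.48, edgeR adjusted p = 0.0447). For cyclopamine against untreated crest tbx2b differed by -2.03 ± 0.46 on the log2 scale, which did not pass adjustment (unadjusted p = 0.00471, edgeR adjusted p = 0.806). The E protein genes tcf3a, tcf3b and tcf12, whose products are held by Id proteins, had edgeR adjusted p-values of 0.837, 0.801 and 0.112 for slow muscle against untreated crest. None was called by edgeR, and DESeq2 called 1 of the 3 higher, beside 10.9% of all genes. In slow muscle against cyclopamine crest all 3 had an unadjusted edgeR p under 0.05, beside 19.7% of all genes. Their directions differed: tcf3a and tcf3b were lower (difference of mean log2(CPM + 1) -1.55 and -1.05) and tcf12 was higher (0.92). None passed edgeR's adjustment there, and DESeq2 called 1 lower, beside 5.97% of all genes.

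For cyclopamine against untreated crest edgeR called 0 of the 115 pathway genes tested. An unadjusted edgeR p under 0.05 was found for 17 of the 115, beside 4.33% of all genes. DESeq2 called 2 of the pathway genes higher and 4 lower, beside 0.916% and 0.887% of all genes. All 3 E protein genes lay above untreated crest in both cyclopamine libraries, where 14.6% of all genes did so. tcf3b averaged 426 ± 89.9 CPM in cyclopamine crest and 235 ± 40.9 CPM in untreated crest (log2 fold change 0.86 ± 0.31, edgeR adjusted p = 0.835). tcf3a averaged 143 ± 48.0 CPM in cyclopamine crest and 61.6 ± 19.2 CPM in untreated crest (1.22 ± 0.51, edgeR adjusted p = 0.835). The median difference of mean log2(CPM + 1) for the 21 receptors and co-receptors was 0.82 in cyclopamine against untreated crest, beside -0.03 over all genes tested. It was 0.66 in slow muscle against untreated crest, beside 0.06. In both cyclopamine libraries 10 of the 21 lay above untreated crest and 0 below, where 14.6% and 16.6% of all genes did so.

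**Figure D5:**
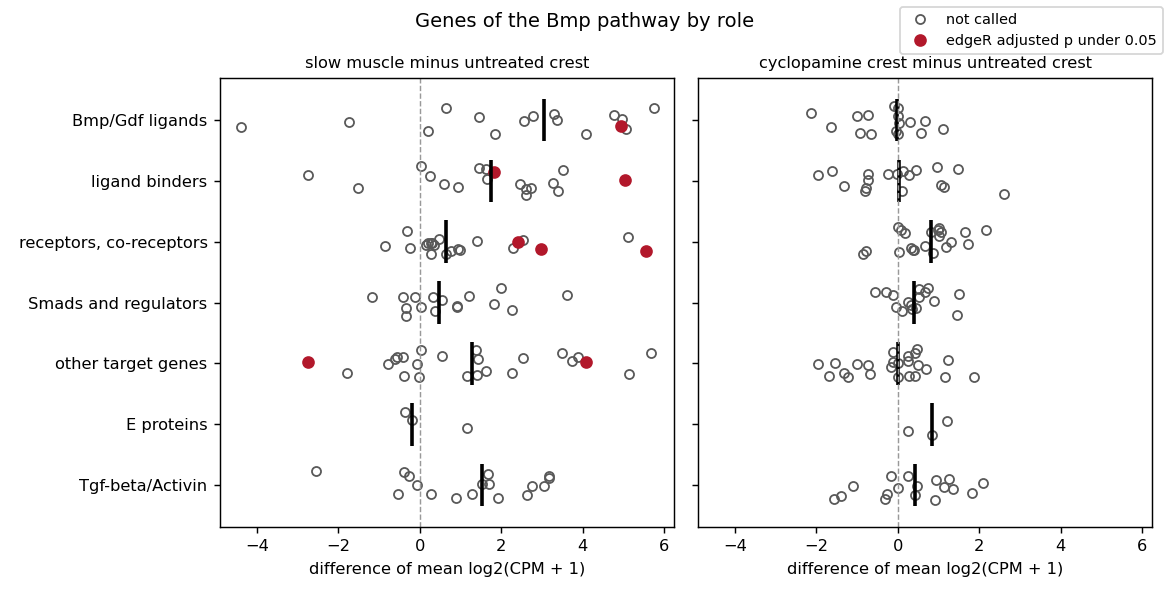
Difference of mean log2(CPM + 1) for each tested gene of the 7 lists, by role, for slow muscle minus untreated crest (left) and cyclopamine minus untreated crest (right); bars are list medians and filled points passed edgeR's adjusted threshold. The ligand median is 3.05 on the left and -0.03 on the right, where no point is filled. The ligands include bmp2a, bmp7b and gdf10b, at 0 counts in all 4 crest libraries, which could only lie higher in slow muscle. bmp6 and bmp16 also passed the filter on low counts through slow muscle alone. bmp8a, at 0 counts in both untreated crest libraries, could not lie below 0 in either panel.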

How the data were processed

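The deposited counts are whole reads per Ensembl gene; featureCounts, Subread, STAR and DESeq2 are named without versions per the submitters' processing notes. The kit was stranded per the labels' protocols, with paired reads of 150 bp per the design text. The sources used here do not give the genome build, the annotation, the strand setting or what was done with reads that map more than once, so gene copies may share reads. The deposited log2 table was not used.

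Each column was matched to a sample by its number and tissue. edgeR 4.0.16 in R 4.3.3 (TMM, filterByExpr with minimum count 10 and total 15, quasi-likelihood) fitted all 6 libraries with 3 groups and no covariate, leaving 17701 genes. P-values are two-sided, adjusted by Benjamini-Hochberg over all genes, with a threshold of 0.05; the script was tested on simulated data. CPM uses the TMM-normalized library size. The common dispersion was 1.132, and SE comes from the test statistic. DESeq2 1.42.0, other filters and scalings, fewer libraries and a replicate block were alternatives.

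Members and lists were chosen with earlier results of these data known. The 7 pathway and 11 marker lists hold 270 entries besides the members, and 6 of all entries did not match; 8 matched through a synonym. Named were all members, up to 4 called genes per list and comparison, otherwise the 3 of highest mean CPM, and the 3 genes most correlated with each member. Totals were 24358588 and 26441238 counts in slow muscle, 20973884 and 18781774 in cyclopamine crest, and 17504692 and 15355583 in untreated crest. A count of 0 allows 3 counts, 0.127 to 0.177 CPM, by counting error only.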

Additional observations from a re-analysis of the deposited data

How the results depend on the processing

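The alternatives for the pathway lists and the named pathway genes were chosen after seeing the data. Of 333 alternative values of the members' fold changes, 298 kept their direction and side of the threshold, 26 became called and 9 changed sign. No member was called with the main settings, so none could lose a call. Several of these settings also called more genes in all, as the counts below show, so the 26 are not read as a trait of the members. Without a filter on low counts slow muscle against untreated crest had 981 genes called higher and 427 lower (main 296 and 155), cyclopamine against untreated crest 8 and 13 (main 0 and 0), and slow muscle against cyclopamine crest 833 and 444 (main 244 and 141). DESeq2 gave 1821 and 875, 157 and 152, and 1722 and 999 in the same order of comparisons. In fits of the 4 libraries compared these counts were 1608 and 760 for slow muscle against untreated crest and 0 and 0 for slow muscle against cyclopamine crest. Upper quartile scaling gave 242 and 236 lower genes in slow muscle against untreated and cyclopamine crest; it moved the median log2 fold change of all genes to -0.16 and -0.11, against 0.08 and 0.12 with TMM.

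The counts depended on single libraries; a group left with 1 library is assumed to vary like the others. In slow muscle against untreated crest they ran over 64 to 1991 higher and 41 to 1022 lower genes, with 67 and 41 without untreated replicate 1, 64 and 44 without untreated replicate 2, 172 higher without slow muscle replicate 1, and 1943 and 990 or 1991 and 1022 without cyclopamine replicate 3 or 4. In cyclopamine against untreated crest they ran over 0 to 398 and 0 to 968, with 398 and 968 without cyclopamine replicate 3 and 10 and 7 without replicate 4. In slow muscle against cyclopamine crest they ran over 114 to 2433 and 90 to 1148, with 114 and 90 without slow muscle replicate 1, 2433 and 1148 without cyclopamine replicate 3, and 1095 and 664 without replicate 4. Pathway genes called higher in slow muscle against untreated crest numbered 22 without a filter, 34 with only the 4 libraries, 28 with the replicate block and 34 by DESeq2 (main 7), and 1 to 38 with a library left out (lower 0 to 2), at 38 without either cyclopamine library, 4 without either slow muscle library and 2 or 1 without untreated replicate 1 or 2. Against cyclopamine crest they were 18 without a filter, 0 with only the 4 libraries, 32 higher and 1 lower by DESeq2 (main 3 and 0), and 1 to 30 higher and 0 to 5 lower with a library left out, at 30 and 26 without cyclopamine replicate 3 and 4, 10 without either untreated library and 1 without either slow muscle library. In cyclopamine against untreated crest there was 1 without a filter, 2 higher and 4 lower by DESeq2 (main 0 and 0), and 0 to 6 in either direction with a library left out, at 6 without cyclopamine replicate 3.

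Fitted log2 fold changes changed sign in these cases. For slow muscle against untreated crest id1 ran over -0.70 to 0.093 (0.093 without untreated replicate 1), id2b over -8.31 to 0.17 (0.17 without slow muscle replicate 1) and tcf3a over -0.95 to 0.089 (0.089 without slow muscle replicate 1, 0.063 without untreated replicate 2). In cyclopamine against untreated crest the value without cyclopamine replicate 4 was 0.27 for id2a (range -2.34 to 0.27), 0.059 for id3 (-1.65 to 0.059), -0.12 for smad6b (-0.12 to 0.41) and 0.35 for bambia (-10.32 to 0.35). Without cyclopamine replicate 3 it was -9.11 for id4 (-9.11 to 1.91), -0.68 for smad6a (-0.68 to 1.11), 0.032 for smad1 (-0.60 to 0.032) and -0.56 for tob1a (-0.56 to 0.47). For slow muscle against cyclopamine crest id3 ran over -1.10 to 0.61, with 0.61 without cyclopamine replicate 3. The values -8.31, -9.11 and -10.32 come from a group at 0 in its only library and are no bound. The cause of these changes was not tested beyond the library named.

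Replicate numbers were not shown to pair the samples (r = 0.0148 between the replicate differences of slow muscle and untreated crest over genes). With the replicate block that comparison had 1321 higher and 635 lower genes, and id2a (-2.61, edgeR adjusted p = 0.0153), smad6a (2.77, 0.0313) and bambia (3.03, 0.0179) were called. No paired analysis was possible for the other comparisons because their groups share no replicate number. The counts of id2b and id4 in a library were 0 to 396.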

Other observations

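The Tgf-beta and Activin branch, which signals through Smad2 and Smad3 rather than the Bmp Smads, was read from a list of 19 genes, of which 17 were tested. Against untreated crest 10 of them lay higher and 1 lower in both slow muscle libraries, where 33.6% and 27.3% of all genes did so. The 10 include inhbaa, at 0 counts in every crest library. It passed the filter on low counts through slow muscle alone and could only lie higher there, also in the medians below. edgeR called 0 of the 17 there, 7 had an unadjusted p under 0.05 (19.2% of all genes), and DESeq2 called 5 higher (10.9% of all genes). The median difference of mean log2(CPM + 1) was 1.52 for slow muscle against untreated crest and 0.41 for cyclopamine against untreated crest, beside 0.06 and -0.03 over all genes tested.

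The Activin subunit gene inhbb was the sole gene of that list called by edgeR in any comparison. It averaged 99.3 ± 7.6 CPM in slow muscle, 13.2 ± 3.1 CPM in cyclopamine crest and 40.4 ± 6.3 CPM in untreated crest (SD, n = 2 libraries each). The log2 fold change of slow muscle against cyclopamine crest was 2.91 ± 0.39 (SE, edgeR adjusted p = 0.036). That call was lost in a fit of these 4 libraries alone (edgeR adjusted p = 0.106) and without slow muscle replicate 1 or 2 (0.0877 or 0.061). For cyclopamine against untreated crest the log2 fold change was -1.62 ± 0.37, which did not pass adjustment (unadjusted p = 0.0051, edgeR adjusted p = 0.806). smad3a, chosen after its values were seen, averaged 43.9 ± 1.1 CPM in slow muscle, 22.9 ± 16.0 CPM in cyclopamine crest and 4.08 ± 1.6 CPM in untreated crest, with an edgeR adjusted p of 0.0763 for slow muscle against untreated crest.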
